A study of Mus musculus with 26 samples.

Results

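Type I interferon-stimulated genes were followed 1 by 1 in 3 murine lung cancer lines treated with the ALK inhibitor alectinib. The members were 47 genes chosen by symbol, of the 55391 genes that the count table names, and all 47 were found. They fall into 12 families by name and function, from the IFIT and ISG15 genes to the guanylate-binding proteins (GBP) and the immunity-related GTPases (IRG). EA1, EA2 and EA3 are lines grown from lung tumors of C57BL/6 mice, and all of them carry the EML4-ALK fusion. EA1 came from a Trp53 wild-type mouse, whereas EA2 and EA3 came from Trp53 null mice, and each line stands for 1 isolate. Cells received 100 nM alectinib or the solvent, 0.1% DMSO, and RNA was sequenced on days 1, 2, 3 and 5, with a single library for every combination of line, treatment and day. Days were taken from the sample titles and time tags, since the treatment protocol in the labels names days 1, 3, 5 and 7 and no day 2. The 4 days of a line and treatment served as its replicates, so n is 4 per group throughout. Spreads of CPM values cover differences between days as well as between cultures. The fits took out the level of each day, so errors of fold changes cover how the difference varied between days. The sources used here do not say whether the days were separate cultures. Another 2 libraries, labelled EA3 day 7, correlated more closely with the EA2 libraries than with those of EA3 and were left out of every comparison.

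Type I interferons bind a receptor made of IFNAR1 and IFNAR2, which activates the kinases JAK1 and TYK2. These kinases set off the assembly of the transcription factor complex ISGF3, which binds the interferon-stimulated response element (ISRE) in the promoters of the genes studied here. Many of the same genes also respond to IFNγ through a different promoter element, the gamma-activated site (GAS), which is true of the GBP and IRG genes in particular. The products recognise viral RNA, block translation or membrane fusion, attach the ubiquitin-like protein ISG15 to other proteins, or attack the membranes around intracellular pathogens.

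Promoter windows around the transcript starts in RefSeq (GRCm38.p6) were available for 37 of the 47 members, 43 windows in all, and the 250 bases before each start were searched. A start in RefSeq need not be the outermost start of the gene in the annotation, and for Irgm2 and 1 of the 2 Trim30a windows it lies well inside the annotated gene. A gene was counted where any of its windows held the letters. The letters of an ISRE core, a pair of GAAA blocks with any 2 bases between them, on either strand, occurred in 17 of the 37 (45.9%) and in 936 of 27025 mouse genes with such a window (3.46%). The letters of a GAS, TTCNNNGAA, which read alike on both strands, occurred in 7 of the 37 members (18.9%) and in 8.13% of all genes. By family, the ISRE letters were found in 3 of 3 GBP, 3 of 3 IRG with a window and 3 of 4 IFIT promoters, and in 0 of 1 PARP-DTX and 0 of 2 Ifi promoters, where few windows were available. A match is a description of the letters and not a measured binding site. The following stretches are shown because they hold the shared letters in members of the ISG15, IFIT, GBP and IRG families. Each is read on the strand of its gene, with the GAAA or TTTC blocks of the match in capitals.

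Isg15 (chr4:156200856-156200915, minus strand): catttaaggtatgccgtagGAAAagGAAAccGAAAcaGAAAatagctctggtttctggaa
Ifit1 (chr19:34640769-34640828, plus strand): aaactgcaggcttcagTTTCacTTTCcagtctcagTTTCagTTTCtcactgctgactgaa
Ifit3 (chr19:34583365-34583424, plus strand): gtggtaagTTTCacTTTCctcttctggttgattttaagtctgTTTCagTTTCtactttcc
Gbp7 (chr3:142530258-142530317, plus strand): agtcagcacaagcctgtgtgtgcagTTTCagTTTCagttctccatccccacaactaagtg
Irgm2 (chr11:58214888-58214947, plus strand): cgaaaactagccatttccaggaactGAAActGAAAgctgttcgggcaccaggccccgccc
Igtp (chr11:58199497-58199555, plus strand): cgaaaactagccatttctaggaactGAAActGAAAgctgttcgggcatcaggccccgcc

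Isg15 has 3 overlapping matches within 1 run of GAAA blocks. Ifit1 and Ifit3 have 2 separate matches each, all on the opposite strand, where GAAA reads as TTTC. The Irgm2 and Igtp stretches are identical at 57 of the 59 bases they have in common when aligned from the first base, and these neighbouring genes also share exons on chromosome 11. Ifit2, Xaf1, Samd9l, Dtx3l, Trim21 and Helz2, whose values are given further on, had no ISRE letters in the searched part of the windows, which says nothing of other sites.

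Library totals ran from 5780062 to 11732401 counts. At that depth a count of 3, taken here as the floor of detection, is worth 0.256 to 0.519 CPM (counts scaled to a library total of 1000000), and such floors cover counting error only. The lines expressed the epithelial keratin Krt18 at mean levels of 486 to 1887 CPM, but Epcam, another epithelial marker, averaged at most 6.51 CPM in EA1 and at most 0.489 CPM in EA2, against 125 to 135 CPM in EA3. Among 9 immune markers the summed level never exceeded 0.994 CPM in an EA1 or EA2 library. In EA3 it lay between 2.59 and 7.61 CPM, a sum that hid opposite movements. There, totals in DMSO and alectinib were 62 and 4 counts for Ly6g, 44 and 9 for S100a8, and 40 and 140 for Csf1r. Csf1r, the 1 immune marker with enough counts to test, did not pass. Marker transcripts moved with treatment, as tested with edgeR in the fit described below. Of 7 epithelial markers, Krt18 fell in all 3 lines (log2 fold changes -1.55 ± 0.33, -1.79 ± 0.33 and -1.16 ± 0.32 in EA1, EA2 and EA3) and Krt8 fell in EA2 (-2.61 ± 0.39), while Epcam rose in EA1 (2.41 ± 0.51) and Cdh1 rose in EA2 (1.55 ± 0.20) and EA3 (0.62 ± 0.20). The endothelial marker Pecam1 fell in EA2 (-2.43 ± 0.69). Of the 6 of 7 fibroblast markers tested, alectinib raised 5 in EA1, 3 in EA2 and 5 in EA3, among them the collagen gene Col3a1, and the sum of all 7 lay between 9.55 and 45.3 CPM in EA1 in DMSO and between 125 and 472 CPM with alectinib. In EA2 that sum lay between 57.0 and 71.3 CPM in DMSO and between 119 and 241 CPM with alectinib, and in EA3 between 10.3 and 20.5 CPM and between 84.8 and 271 CPM. The part of these markers in the results below was not tested. In bulk RNA, fewer cells expressing a gene and less RNA of it per cell cannot be told apart.

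More of the tested interferon-stimulated genes rose than fell with alectinib in each of the 3 lines. Enough counts for a test were present for 34 of the 47, and a gene expressed in a single group of libraries could pass that filter, so counts over the 34 are descriptive. In the quasi-likelihood test of edgeR, with p-values adjusted after Benjamini and Hochberg and a threshold of 0.05, 18 of the 34 rose in EA1 and 0 fell (0 by DESeq2, and 0 at an unadjusted p under 0.05), beside 18.0% of all 14264 genes tested that rose and 15.8% that fell. In EA2, 15 rose and 2 fell, beside 13.0% and 11.3% of all genes. In EA3, 23 rose and 4 fell, beside 16.5% and 15.8%. Leaving out day 3 in all lines reduced the 18 of EA1 to 10, and leaving out day 1 reduced the 15 of EA2 to 5. With each line fitted alone the 18 of EA1 became 10. There Dtx3l and Trim21 lost their calls, and the others missing had no value in that fit. Without the day block the 15 of EA2 became 7. Setting aside calls smaller than 1 on the log2 scale in either direction left 17, 11 and 22 rises in EA1, EA2 and EA3. Falls came to 2 in EA2 and 3 in EA3. Shares of all genes under these alternative settings are not given here, so the reduced counts cannot be set beside them. Over the 34 members, the median log2 fold change came to 1.22 for EA1, 0.90 for EA2 and 1.68 for EA3, where the median over all genes was 0.03, 0.00 and 0.04. Without Ifi44 and Iigp1, which had at most 3 counts in both EA2 groups, the EA2 median was still 0.90. Day by day, between 61.8% and 85.3% of the 34 were above the DMSO library of the same day, as were between 47.6% and 51.8% of all genes tested.

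**Figure D1:**
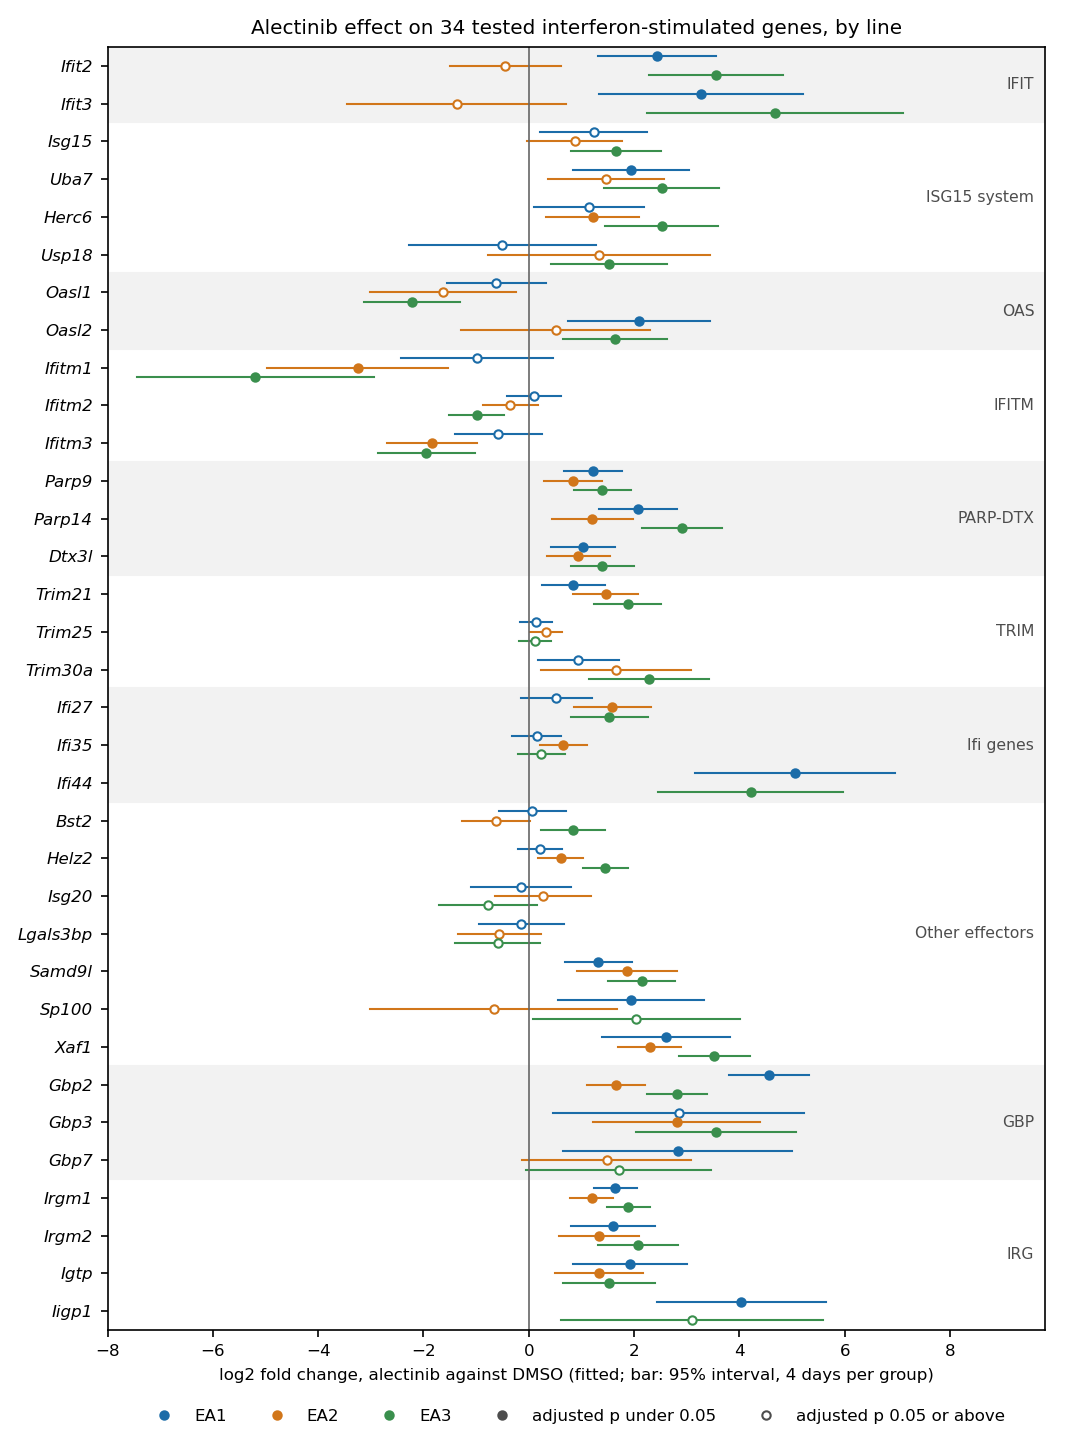
Fitted log2 fold change of alectinib against DMSO (horizontal axis) for the 34 tested members, grouped by family, with 1 point per line and 95% intervals as bars, and filled points for an adjusted p under 0.05. Most points lie to the right of 0, while the IFITM genes and Oasl1 lie to the left in EA2 and EA3. Ifi44 and Iigp1 have no EA2 point because both groups held at most 3 counts.

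The plot of fold changes by line separates several patterns. A rise passed the test in all 3 lines for 10 members: Dtx3l, Gbp2, Igtp, Irgm1, Irgm2, Parp14, Parp9, Samd9l, Trim21 and Xaf1. Of all genes tested, 5.48% did so. For 5 members, Ifi44, Ifit2, Ifit3, Oasl2 and Uba7, it passed in EA1 and EA3 alone, as for 4.2% of all genes. Gbp3, Helz2, Herc6 and Ifi27 passed in EA2 and EA3 alone, beside 2.26% of all genes. A rise passed in a single line for Gbp7, Iigp1 and Sp100 (EA1), Ifi35 (EA2) and Bst2, Isg15, Trim30a and Usp18 (EA3). Ifitm1 and Ifitm3 fell in EA2 and EA3 alone, which 2.16% of all genes did, and Ifitm2 and Oasl1 fell in EA3. Isg20, Lgals3bp and Trim25 were called in no line. Shares of all genes are not given for the single-line patterns or for no call, so those members are listed without comparison. A difference between lines was itself tested and passed for 4 members only (described further on), so for the others a call in 1 line and not in another does not show that the lines differ.

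The IFIT genes encode proteins that bind foreign or uncapped viral RNA. Ifit2 (chr19:34550694-34576419, GRCm38) and Ifit3 (chr19:34583531-34588731) rose in EA1 and EA3, and neither rose in EA2. Values are listed in the order of days 1, 2, 3 and 5, here and below. In EA1, Ifit2 stood at 3.32, 1.48, 0.674 and 1.02 CPM in DMSO and at 6.54, 7.83, 7.91 and 9.36 CPM with alectinib. In EA2, Ifit2 stood at 5.04, 3.36, 4.0 and 3.77 CPM in DMSO and at 2.68, 2.94, 1.66 and 5.45 CPM with alectinib. In EA3, Ifit2 stood at 0.73, 0.242, 0.266 and 0.667 CPM in DMSO and at 2.31, 4.28, 10.1 and 9.97 CPM with alectinib. The alectinib values lay above every DMSO value in EA1 and EA3, whereas in EA2 the groups overlapped and alectinib was the higher on 1 of 4 days. For Ifit2, the fitted log2 fold change was 2.44 ± 0.52 for EA1 with an edgeR adjusted p = 0.00314, -0.44 ± 0.49 for EA2 with adjusted p = 0.553 and 3.55 ± 0.59 for EA3 with adjusted p = 0.000632. Here and below, errors of fold changes are standard errors, and adjusted p-values come from edgeR's quasi-likelihood test. Values after ± for a mean CPM are standard deviations over the 4 days. In EA1, Ifit3 stood at 0.215, 0.114, 0 and 0 CPM in DMSO and at 0.289, 0.745, 1.52 and 1.74 CPM with alectinib. In EA2, Ifit3 stood at 0.36, 0.438, 0.20 and 0.252 CPM in DMSO and at 0.199, 0, 0 and 0.222 CPM with alectinib. In EA3, Ifit3 stood at 0, 0, 0 and 0.167 CPM in DMSO and at 0.0925, 0.219, 1.49 and 3.65 CPM with alectinib. Ifit3 was close to the floor in DMSO, and its alectinib values were highest on days 3 and 5 in EA1 and EA3. Ifit3 totalled 3 against 45 counts, a ratio of 14.2 after scaling by library totals (exact 95% counting interval 4.55 to 71.3) in EA1, and 1 against 53 counts, a ratio of 47.9 after scaling by library totals (exact 95% counting interval 8.23 to 1927) in EA3. For Ifit3, the fitted log2 fold change was 3.27 ± 0.90 for EA1 with an edgeR adjusted p = 0.0137, -1.37 ± 0.97 for EA2 with adjusted p = 0.337 and 4.67 ± 1.13 for EA3 with adjusted p = 0.00686. Ifit3 shares 31.6% of its 100-base exon stretches with Ifit3b, so that reads could be split between them, and Ifit3b and Ifit1 had too few counts to test.

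**Figure D2:**
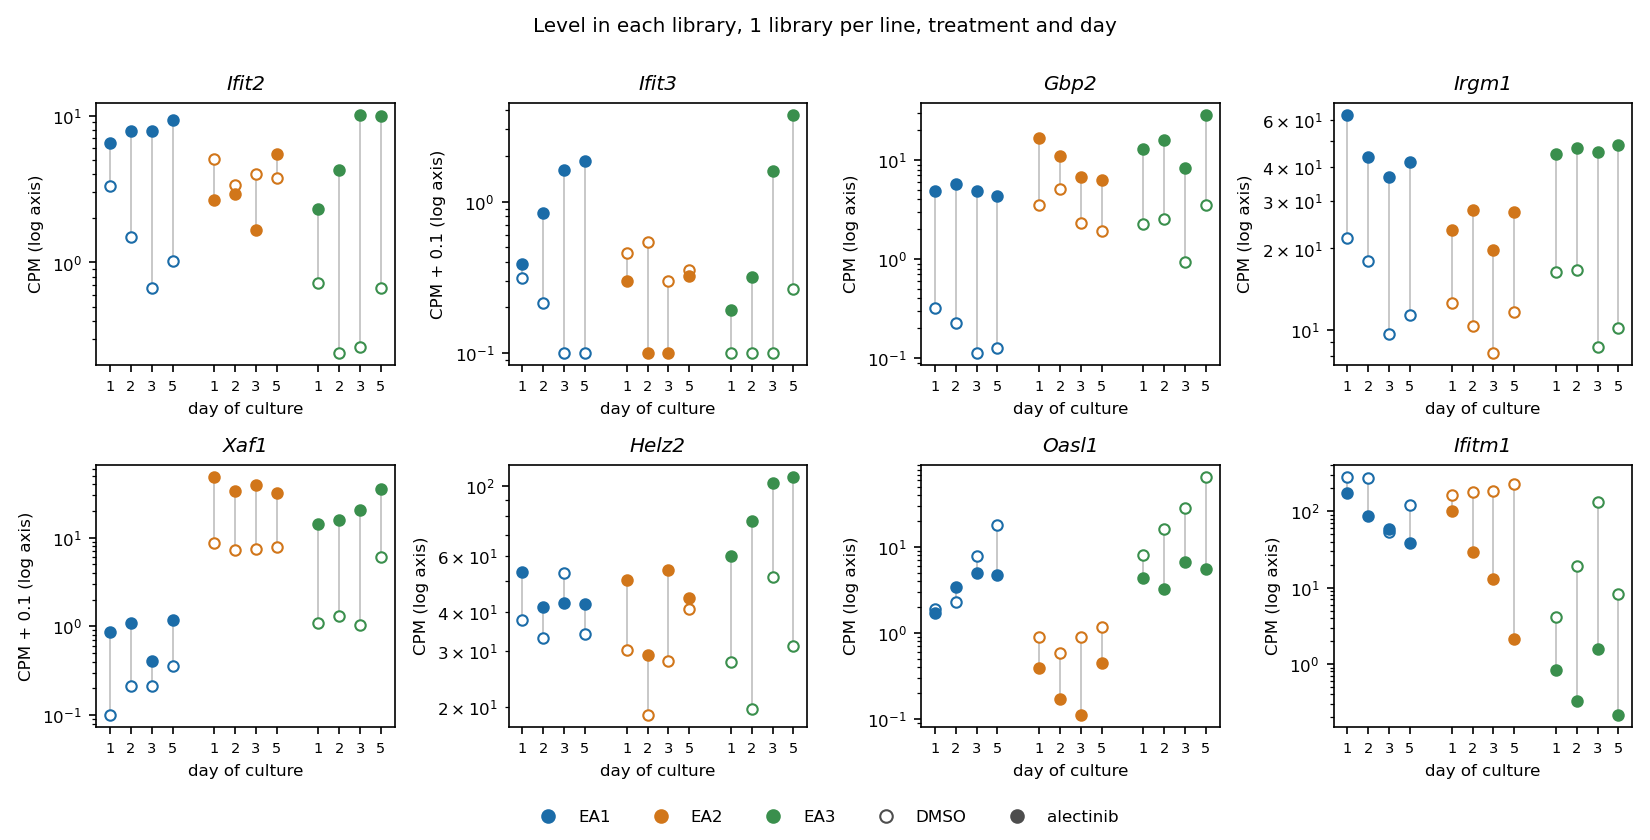
CPM of 8 members in each library on a log axis, by line and day of culture, with open points for DMSO and filled points for alectinib (0.1 was added for Ifit3 and Xaf1, which have libraries at 0). Filled points lie above the open ones in every line for Gbp2, Irgm1 and Xaf1, in EA1 and EA3 for Ifit2, and below them in EA2 and EA3 for Oasl1 and Ifitm1.

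The ISG15 system comprises Isg15, a ubiquitin-like modifier, Uba7, the enzyme that activates it, Herc6, the mouse ligase that attaches it, and Usp18, the protease that removes it and that also restrains the type I interferon receptor. All 4 rose in EA3, Uba7 rose in EA1 too, and Herc6 rose in EA2 too. In EA1, Uba7 stood at 1.82, 3.31, 0.337 and 2.67 CPM in DMSO and at 8.46, 4.97, 5.37 and 9.03 CPM with alectinib. In EA2, Uba7 stood at 3.42, 2.48, 0.60 and 3.27 CPM in DMSO and at 14.7, 6.06, 3.66 and 3.45 CPM with alectinib. In EA3, Uba7 stood at 0.912, 3.99, 0.797 and 5.17 CPM in DMSO and at 12.2, 13.3, 7.35 and 18.4 CPM with alectinib. Every alectinib library was above every DMSO library of its line, and the 2 EA2 values came closest on day 5. For Uba7, the fitted log2 fold change was 1.94 ± 0.51 for EA1 with an edgeR adjusted p = 0.0109, 1.46 ± 0.51 for EA2 with adjusted p = 0.051 and 2.52 ± 0.51 for EA3 with adjusted p = 0.00227. In EA1, Herc6 stood at 0.215, 0.685, 0.562 and 0.764 CPM in DMSO and at 1.15, 0.621, 1.82 and 1.33 CPM with alectinib. In EA2, Herc6 stood at 2.7, 1.61, 1.8 and 2.1 CPM in DMSO and at 4.27, 5.02, 4.54 and 5.11 CPM with alectinib. In EA3, Herc6 stood at 0.456, 0.483, 0.133 and 0.50 CPM in DMSO and at 1.2, 1.98, 1.49 and 6.65 CPM with alectinib. Herc6 was highest in EA2 cells in DMSO, and its largest EA3 value was that of day 5. For Herc6, the fitted log2 fold change was 1.14 ± 0.48 for EA1 with an edgeR adjusted p = 0.0845, 1.21 ± 0.41 for EA2 with adjusted p = 0.045 and 2.52 ± 0.50 for EA3 with adjusted p = 0.00205. On the same strand, Gm45193 covers 13.7% of the Herc6 exon bases and Gm20661 covers 3.48% of those of Uba7. The EA3 call of Isg15 was lost without the day block, the EA2 call of Herc6 held under 3 of 10 alternative settings, and the EA1 call of Uba7 was lost without day 3. Isg15 averaged 1.41 ± 1.28 CPM in DMSO and 3.98 ± 2.7 CPM with alectinib in EA3, a log2 fold change of 1.66 ± 0.40 for EA3 (edgeR adjusted p = 0.00625), while the differences of 1.24 ± 0.47 for EA1 (edgeR adjusted p = 0.0577) and 0.87 ± 0.42 for EA2 (edgeR adjusted p = 0.158) did not pass. Usp18, which shares 4.44% of its exon bases with Gm44148 on the opposite strand, was near the floor in EA1 and EA2 and averaged 1.17 ± 0.909 CPM in DMSO and 2.88 ± 1.15 CPM with alectinib in EA3, which gave a log2 change of 1.52 ± 0.51 for EA3 (edgeR adjusted p = 0.0373) that held under 4 of 10 alternatives.

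The oligoadenylate synthetases make the 2′-5′ linked messenger that activates RNase L, and Oasl1 and Oasl2 are their relatives, of which Oasl1 is known to restrain translation of Irf7. The tested pair moved in opposite directions in EA3. In EA1, Oasl1 stood at 1.93, 2.28, 7.86 and 18.3 CPM in DMSO and at 1.73, 3.48, 4.97 and 4.72 CPM with alectinib. In EA2, Oasl1 stood at 0.901, 0.584, 0.90 and 1.17 CPM in DMSO and at 0.397, 0.173, 0.111 and 0.445 CPM with alectinib. In EA3, Oasl1 stood at 8.12, 16.4, 28.5 and 65.9 CPM in DMSO and at 4.35, 3.29, 6.79 and 5.58 CPM with alectinib. In EA3 the DMSO level was higher on each later day, up to day 5, while the alectinib libraries stayed below all of them. For Oasl1, the fitted log2 fold change was -0.62 ± 0.44 for EA1 with an edgeR adjusted p = 0.291, -1.63 ± 0.64 for EA2 with adjusted p = 0.0834 and -2.22 ± 0.43 for EA3 with adjusted p = 0.00169. In EA1, Oasl2 stood at 0.215, 0.343, 0 and 0.509 CPM in DMSO and at 1.06, 0.994, 0.912 and 1.41 CPM with alectinib. In EA2, Oasl2 stood at 0.18, 0, 0.20 and 0.168 CPM in DMSO and at 0.497, 0.173, 0 and 0.222 CPM with alectinib. In EA3, Oasl2 stood at 1.19, 3.99, 4.12 and 7.84 CPM in DMSO and at 6.94, 7.46, 11.8 and 24.8 CPM with alectinib. Oasl2 was highest in EA3, where the day 1 alectinib value was below the day 5 DMSO value, so that the groups overlapped although alectinib was the higher on each day. For Oasl2, the fitted log2 fold change was 2.09 ± 0.63 for EA1 with an edgeR adjusted p = 0.0199, 0.51 ± 0.84 for EA2 with adjusted p = 0.698 and 1.63 ± 0.46 for EA3 with adjusted p = 0.015. Both Oasl2 calls were lost when day 1 or day 5 was left out. The other members of the family, Oas1a, Oas2 and Oas3, had too few counts to test.

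The IFITM proteins sit in membranes and hinder the fusion of entering viruses. All 3 tested members fell in EA3, and Ifitm1 and Ifitm3 fell in EA2 too. In EA1, Ifitm1 stood at 282, 275, 53.7 and 119 CPM in DMSO and at 171, 86.2, 58.2 and 38.9 CPM with alectinib. In EA2, Ifitm1 stood at 162, 178, 186 and 225 CPM in DMSO and at 102, 28.9, 13 and 2.11 CPM with alectinib. In EA3, Ifitm1 stood at 4.1, 19, 132 and 8.17 CPM in DMSO and at 0.832, 0.329, 1.58 and 0.214 CPM with alectinib. Alectinib libraries were below all DMSO libraries in EA2 and EA3, and in EA2 the alectinib level was lower on each later day. For Ifitm1, the fitted log2 fold change was -0.98 ± 0.67 for EA1 with an edgeR adjusted p = 0.274, -3.25 ± 0.79 for EA2 with adjusted p = 0.00966 and -5.19 ± 1.04 for EA3 with adjusted p = 0.00249. The size of these falls moved with the day left out, from -2.36 without day 5 to -4.16 without day 1 in EA2, and from -4.19 without day 3, whose DMSO library was far above the others, to -6.05 without day 1 in EA3. In EA1, Ifitm3 stood at 118, 126, 47.2 and 55.8 CPM in DMSO and at 63.8, 56.8, 51 and 43.2 CPM with alectinib. In EA2, Ifitm3 stood at 203, 230, 201 and 216 CPM in DMSO and at 120.2, 72, 51 and 27.9 CPM with alectinib. In EA3, Ifitm3 stood at 13, 41.7, 44.1 and 25.5 CPM in DMSO and at 3.24, 3.18, 14.1 and 15.2 CPM with alectinib. Ifitm3 did not overlap between EA2 groups, but in EA3 the alectinib values of days 3 and 5 exceeded the lowest DMSO value. For Ifitm3, the fitted log2 fold change was -0.58 ± 0.38 for EA1 with an edgeR adjusted p = 0.255, -1.83 ± 0.40 for EA2 with adjusted p = 0.00427 and -1.94 ± 0.42 for EA3 with adjusted p = 0.00377. In EA1 both genes were lower on 3 of 4 days without passing the test, and the EA2 call of Ifitm1 was lost without day 3, without the day block and with EA2 fitted alone. Ifitm2 averaged 37.4 ± 14.5 CPM in DMSO and 17.9 ± 4.18 CPM with alectinib in EA3, which gave a log2 change of -0.99 ± 0.24 for EA3 (edgeR adjusted p = 0.00768) that was lost without day 2, and it did not pass in EA1 (0.10 ± 0.24) or EA2 (-0.35 ± 0.24). Gm45717 covers 40.9% of the Ifitm2 exons on the same strand, so that its reads are uncertain.

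Parp9 and Dtx3l encode partners in 1 complex that modifies histones and adds to interferon signalling, and Parp14 is a further ADP-ribosyltransferase. All 3 rose in all 3 lines. In EA1, Parp14 stood at 2.36, 4.45, 1.12 and 3.31 CPM in DMSO and at 13.2, 8.94, 10.4 and 11.6 CPM with alectinib. In EA2, Parp14 stood at 2.34, 1.31, 1.2 and 2.6 CPM in DMSO and at 6.66, 3.29, 3.99 and 3.34 CPM with alectinib. In EA3, Parp14 stood at 1.37, 2.54, 3.59 and 3.5 CPM in DMSO and at 15.6, 19.1, 17 and 28.6 CPM with alectinib. No library of one treatment reached into the range of the other in any line, and day 3 held the lowest EA1 value in DMSO. For Parp14, the fitted log2 fold change was 2.07 ± 0.35 for EA1 with an edgeR adjusted p = 0.000673, 1.21 ± 0.36 for EA2 with adjusted p = 0.0249 and 2.91 ± 0.35 for EA3 with adjusted p = 6.81e-05. In EA1, Parp9 stood at 12.3, 17.6, 4.61 and 12.2 CPM in DMSO and at 25.8, 23, 23.4 and 27.5 CPM with alectinib. In EA2, Parp9 stood at 8.2, 11.7, 8.1 and 8.05 CPM in DMSO and at 20.6, 16.6, 10.6 and 17.2 CPM with alectinib. In EA3, Parp9 stood at 9.21, 11.6, 7.3 and 14.7 CPM in DMSO and at 25.7, 28.1, 19.4 and 39.4 CPM with alectinib. For Parp9, the groups were apart in EA1 and EA3 and overlapped in EA2 through the day 2 DMSO library. For Parp9, the fitted log2 fold change was 1.21 ± 0.26 for EA1 with an edgeR adjusted p = 0.00302, 0.84 ± 0.26 for EA2 with adjusted p = 0.0283 and 1.40 ± 0.25 for EA3 with adjusted p = 0.00113. Dtx3l changed on the log2 scale by 1.02 ± 0.28 for EA1 (edgeR adjusted p = 0.0135), 0.94 ± 0.28 for EA2 (edgeR adjusted p = 0.0248) and 1.40 ± 0.28 for EA3 (edgeR adjusted p = 0.00203). In EA2, the calls of all 3 genes were lost without day 1, those of Parp9 and Dtx3l also without day 5, that of Parp14 also without day 2 or day 3, and that of Parp9 also without the day block and with library size alone. The EA1 call of Dtx3l was lost without day 3, without day 5 and with EA1 fitted alone. Parp9 and Dtx3l overlap head to head on opposite strands over 9.4% and 8.0% of their exon bases, and the strand setting of the counts is not given in the sources used here.

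Of the TRIM ubiquitin ligases, Trim21, a cytosolic antibody receptor, rose in all 3 lines, Trim30a rose in EA3, and Trim25, which ubiquitinates the RNA sensor RIG-I, was called in none. In EA1, Trim21 stood at 3.65, 5.37, 2.13 and 4.08 CPM in DMSO and at 8.85, 5.84, 5.07 and 6.96 CPM with alectinib. In EA2, Trim21 stood at 1.89, 2.77, 2.1 and 2.18 CPM in DMSO and at 5.37, 6.58, 7.2 and 5.45 CPM with alectinib. In EA3, Trim21 stood at 1.92, 1.45, 1.59 and 1.83 CPM in DMSO and at 4.35, 5.49, 7.07 and 9.33 CPM with alectinib. The groups were apart in EA2 and EA3, and in EA1 the day 2 DMSO value was above the lowest alectinib value. For Trim21, the fitted log2 fold change was 0.85 ± 0.28 for EA1 with an edgeR adjusted p = 0.0317, 1.46 ± 0.29 for EA2 with adjusted p = 0.00225 and 1.88 ± 0.30 for EA3 with adjusted p = 0.000427. In EA1, Trim30a stood at 2.25, 2.74, 2.13 and 4.58 CPM in DMSO and at 3.85, 4.1, 6.29 and 8.37 CPM with alectinib. In EA2, Trim30a stood at 0, 0.146, 0.10 and 0.0839 CPM in DMSO and at 0.0994, 0.692, 0.111 and 0.334 CPM with alectinib. In EA3, Trim30a stood at 0, 0.121, 0.531 and 0.333 CPM in DMSO and at 0.185, 0.219, 2.88 and 1.93 CPM with alectinib. Trim30a was expressed mainly in EA1, where alectinib was the higher on 4 of 4 days. For Trim30a, the fitted log2 fold change was 0.94 ± 0.36 for EA1 with an edgeR adjusted p = 0.0562, 1.66 ± 0.66 for EA2 with adjusted p = 0.111 and 2.28 ± 0.53 for EA3 with adjusted p = 0.00552. The Trim21 rise held under 11 of 11 alternatives in EA2, 11 of 11 in EA3 and 6 of 11 in EA1, and the Trim30a call was lost without day 5. Trim25 averaged 78.9 ± 9.01 CPM in DMSO and 85.9 ± 3.13 CPM with alectinib in EA1 and had fitted log2 values of 0.13 ± 0.14 for EA1, 0.32 ± 0.14 for EA2 and 0.12 ± 0.14 for EA3.

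Ifi27, Ifi35 and Ifi44 are named only for their induction by interferon. In EA1, Ifi27 stood at 12.4, 28.3, 19.5 and 38.7 CPM in DMSO and at 31.6, 31.8, 29.8 and 38.8 CPM with alectinib. In EA2, Ifi27 stood at 2.79, 4.82, 5.9 and 5.03 CPM in DMSO and at 17.2, 16.3, 12.7 and 9.67 CPM with alectinib. In EA3, Ifi27 stood at 1.28, 7.73, 7.7 and 17.8 CPM in DMSO and at 6.29, 10.1, 32.5 and 50.6 CPM with alectinib. Ifi27 was high in EA1 under both treatments and its groups were apart in EA2 alone. For Ifi27, the fitted log2 fold change was 0.52 ± 0.31 for EA1 with an edgeR adjusted p = 0.212, 1.59 ± 0.34 for EA2 with adjusted p = 0.00392 and 1.53 ± 0.34 for EA3 with adjusted p = 0.00395. The EA2 call of Ifi27 was lost without the day block. In EA1, Ifi44 stood at 0, 0.114, 0 and 0 CPM in DMSO and at 0.385, 1.12, 1.42 and 3.07 CPM with alectinib. In EA2, Ifi44 stood at 0.0901, 0.146, 0 and 0.0839 CPM in DMSO and at 0, 0, 0 and 0 CPM with alectinib. In EA3, Ifi44 stood at 0, 0, 0.133 and 0.167 CPM in DMSO and at 0.37, 0.878, 2.05 and 2.79 CPM with alectinib. Ifi44 was near 0 in DMSO in all 3 lines and was detected in all 8 alectinib libraries of EA1 and EA3, and in none of EA2. It totalled 1 against 64 counts, a ratio of 60.4 after scaling by library totals (exact 95% counting interval 10.5 to 2424) in EA1 and 2 against 60 counts, a ratio of 27.1 after scaling by library totals (exact 95% counting interval 7.18 to 229) in EA3, and EA2 had 3 counts in DMSO and 0 with alectinib, which gives no fold. The fitted log2 fold change of Ifi44 was 5.05 ± 0.86 for EA1 (edgeR adjusted p = 0.00144) and 4.21 ± 0.79 for EA3 (edgeR adjusted p = 0.00256), and its test between lines just missed the threshold (edgeR adjusted p = 0.0509). Ifi35 averaged 11.6 ± 1.89 CPM in DMSO and 18.5 ± 4.18 CPM with alectinib in EA2, a log2 fold change of 0.66 ± 0.21 for EA2 (edgeR adjusted p = 0.0355) that held under 6 of 11 alternatives, and did not pass in EA1 (0.15 ± 0.21) or EA3 (0.24 ± 0.21). Gm11626 covers 16.8% of the Ifi35 exon bases on the opposite strand, so with the strand setting unknown its reads are uncertain.

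Among the other effectors, Xaf1, an antagonist of the apoptosis inhibitor XIAP, rose in all 3 lines. In EA1, Xaf1 stood at 0, 0.114, 0.112 and 0.255 CPM in DMSO and at 0.769, 0.994, 0.304 and 1.08 CPM with alectinib. In EA2, Xaf1 stood at 8.65, 7.16, 7.3 and 7.72 CPM in DMSO and at 48.4, 33.8, 38.9 and 31.8 CPM with alectinib. In EA3, Xaf1 stood at 1.0, 1.21, 0.929 and 6.0 CPM in DMSO and at 14.1, 15.9, 20.3 and 35.1 CPM with alectinib. No alectinib library of a line overlapped its DMSO libraries, although the DMSO levels of the lines lay far apart. For Xaf1, the fitted log2 fold change was 2.61 ± 0.56 for EA1 with an edgeR adjusted p = 0.00336, 2.29 ± 0.28 for EA2 with adjusted p = 6.28e-05 and 3.52 ± 0.31 for EA3 with adjusted p = 7.73e-06. In EA1 the DMSO libraries held 4 counts of Xaf1 in all, against 32 with alectinib, so the size of that fold change, and of the DMSO differences from EA1 given further on, rests on few counts. Each of the 3 calls held under every alternative run. In EA1, Helz2 stood at 37.5, 33.1, 52.8 and 33.9 CPM in DMSO and at 53.5, 41.2, 42.7 and 42.3 CPM with alectinib. In EA2, Helz2 stood at 30.4, 18.8, 27.9 and 40.8 CPM in DMSO and at 50.2, 29.3, 54.1 and 44 CPM with alectinib. In EA3, Helz2 stood at 27.7, 19.7, 51.5 and 31.2 CPM in DMSO and at 60.1, 77.1, 102 and 107 CPM with alectinib. Helz2, a helicase that acts as a nuclear receptor coactivator, was separated between treatments in EA3 and overlapped in EA1 and EA2. For Helz2, the fitted log2 fold change was 0.21 ± 0.19 for EA1 with an edgeR adjusted p = 0.421, 0.60 ± 0.20 for EA2 with adjusted p = 0.0379 and 1.46 ± 0.20 for EA3 with adjusted p = 0.000161. The EA2 call of Helz2 held under 6 of 11 alternatives. Samd9l, a restriction factor of poxviruses, averaged 55.9 ± 41.5 CPM in DMSO and 115 ± 15 CPM with alectinib in EA1, 0.77 ± 0.447 CPM in DMSO and 2.94 ± 1.45 CPM with alectinib in EA2 and 24.3 ± 20.9 CPM in DMSO and 101 ± 72.8 CPM with alectinib in EA3. These are log2 fold changes of 1.32 ± 0.30 for EA1 (edgeR adjusted p = 0.00445), 1.87 ± 0.44 for EA2 (edgeR adjusted p = 0.00751) and 2.14 ± 0.30 for EA3 (edgeR adjusted p = 0.000195). The EA1 and EA2 calls of Samd9l were lost without the day block, and the EA2 call also without day 1. Bst2, or tetherin, which holds budding virions at the cell surface, rose by 0.83 ± 0.28 for EA3 (edgeR adjusted p = 0.0361) and lost that call when any single day was left out. Sp100, a component of nuclear bodies, rose by 1.94 ± 0.65 for EA1 (edgeR adjusted p = 0.0335) and lost that call in the same way. Lgals3bp, a secreted glycoprotein, averaged 298 ± 179.8 CPM in DMSO and 235 ± 40.6 CPM with alectinib in EA1, and neither it nor Isg20, an exonuclease that degrades viral RNA, was called in any line (log2 fold changes -0.14 ± 0.44, 0.27 ± 0.42 and -0.78 ± 0.44 for Isg20).

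The guanylate-binding proteins are large GTPases that assemble on the membranes of intracellular pathogens. Gbp2 (chr3:142620602-142638008) rose in every line. In EA1, Gbp2 stood at 0.322, 0.228, 0.112 and 0.127 CPM in DMSO and at 4.91, 5.71, 4.87 and 4.31 CPM with alectinib. In EA2, Gbp2 stood at 3.51, 5.11, 2.3 and 1.93 CPM in DMSO and at 16.8, 11.1, 6.76 and 6.23 CPM with alectinib. In EA3, Gbp2 stood at 2.28, 2.54, 0.929 and 3.5 CPM in DMSO and at 12.9, 15.9, 8.37 and 28.6 CPM with alectinib. Treatments did not overlap in any line, and the 4 EA1 alectinib libraries lay within a narrow range. In EA1 each DMSO library held at most 3 counts of Gbp2, the floor, and the group 7 counts against 197 with alectinib, so the size of its EA1 fold change and of its differences from other lines rests on few counts. For Gbp2, the fitted log2 fold change was 4.56 ± 0.35 for EA1 with an edgeR adjusted p = 4.43e-06, 1.66 ± 0.26 for EA2 with adjusted p = 0.000398 and 2.81 ± 0.27 for EA3 with adjusted p = 1.17e-05. All 3 calls held under every alternative run. In EA1, Gbp3 stood at 0, 0.114, 0 and 0 CPM in DMSO and at 0.289, 0.124, 0.203 and 0.58 CPM with alectinib. In EA2, Gbp3 stood at 0.18, 0.292, 0.20 and 0.168 CPM in DMSO and at 5.07, 1.21, 1.33 and 0.334 CPM with alectinib. In EA3, Gbp3 stood at 0, 0.242, 0.266 and 0.50 CPM in DMSO and at 1.76, 1.54, 2.51 and 6.01 CPM with alectinib. Gbp3 was at or under the floor of 3 counts in every DMSO library, and its largest EA2 value was that of day 1. For Gbp3, the fitted log2 fold change was 2.84 ± 1.11 for EA1 with an edgeR adjusted p = 0.0618, 2.81 ± 0.74 for EA2 with adjusted p = 0.0134 and 3.56 ± 0.71 for EA3 with adjusted p = 0.00204. In EA1, Gbp3 totalled 1 against 13 counts, a ratio of 12.3 after scaling by library totals (exact 95% counting interval 1.84 to 522), and its EA2 call was lost without day 1 or day 3. Gbp7 totalled 3 against 28 counts, a ratio of 8.81 after scaling by library totals (exact 95% counting interval 2.72 to 45.3) in EA1, with a log2 fold change of 2.83 ± 1.01 for EA1 (edgeR adjusted p = 0.0447) that held under 6 of 9 alternatives, and did not pass in EA2 (1.48 ± 0.75) or EA3 (1.71 ± 0.82). Gm43802 covers 11.3% of the Gbp7 exon bases on the same strand.

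The IRG proteins are GTPases that act on the vacuoles of intracellular bacteria and parasites, with Irgm1, Irgm2 and Igtp (Irgm3) as the regulatory members and Iigp1 as an effector. The regulatory members rose in all 3 lines. In EA1, Irgm1 stood at 21.9, 18, 9.66 and 11.3 CPM in DMSO and at 62.6, 43.6, 36.7 and 41.7 CPM with alectinib. In EA2, Irgm1 stood at 12.6, 10.4, 8.2 and 11.7 CPM in DMSO and at 23.3, 27.7, 19.7 and 27.4 CPM with alectinib. In EA3, Irgm1 stood at 16.3, 16.7, 8.63 and 10.2 CPM in DMSO and at 44.9, 47.3, 45.6 and 48.3 CPM with alectinib. Irgm1 was separated between treatments in every line, and its EA3 alectinib values were close to each other. For Irgm1, the fitted log2 fold change was 1.64 ± 0.19 for EA1 with an edgeR adjusted p = 4.16e-05, 1.20 ± 0.19 for EA2 with adjusted p = 0.000466 and 1.89 ± 0.19 for EA3 with adjusted p = 2.04e-05. These calls held under every alternative run. In EA1, Irgm2 stood at 0.858, 1.26, 0.899 and 1.91 CPM in DMSO and at 3.65, 2.48, 3.75 and 4.89 CPM with alectinib. In EA2, Irgm2 stood at 2.07, 1.61, 1.7 and 3.44 CPM in DMSO and at 4.87, 3.46, 8.64 and 5.45 CPM with alectinib. In EA3, Irgm2 stood at 1.37, 3.02, 1.73 and 4.5 CPM in DMSO and at 4.25, 7.13, 11.4 and 28.8 CPM with alectinib. Irgm2 had its highest EA3 value on day 5, and the EA3 groups overlapped through the day 5 DMSO library. For Irgm2, the fitted log2 fold change was 1.60 ± 0.37 for EA1 with an edgeR adjusted p = 0.00512, 1.33 ± 0.35 for EA2 with adjusted p = 0.0142 and 2.07 ± 0.35 for EA3 with adjusted p = 0.000746. Igtp changed on the log2 scale by 1.92 ± 0.50 for EA1 (edgeR adjusted p = 0.00996), 1.33 ± 0.39 for EA2 (edgeR adjusted p = 0.0231) and 1.52 ± 0.40 for EA3 (edgeR adjusted p = 0.0112). Iigp1 averaged 0.142 ± 0.0487 CPM in DMSO and 2.58 ± 0.626 CPM with alectinib in EA1, a log2 fold change of 4.04 ± 0.72 for EA1 (edgeR adjusted p = 0.00234), and totalled 1 against 21 counts, a ratio of 19 after scaling by library totals (exact 95% counting interval 3.05 to 785) in EA3 (fitted log2 fold change 3.10 ± 1.11 for EA3 (edgeR adjusted p = 0.0577)). In EA2 Iigp1 had 0 counts in DMSO and 2 with alectinib, which gives no fold. Of the Igtp calls, that of EA1 held under 7 of 9 alternatives, that of EA2 under 6 of 10 and that of EA3 under 9 of 10. Without the day block, the EA2 calls of Irgm2 and Igtp were lost, and so was the EA3 call of Igtp, while leaving out day 1 or day 3 also ended the EA2 call of Irgm2.

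The alectinib effect was compared between lines for each member with a test on 2 degrees of freedom. It differed for 4 of 34 members, beside 7.05% of all genes tested: Gbp2 (edgeR adjusted p = 0.00522), Ifit2 (adjusted p = 0.0139), Helz2 (adjusted p = 0.0336) and Ifit3 (adjusted p = 0.0416). Pairwise, 6.48% of all genes differed for EA2 against EA1, 1.91% for EA3 against EA1 and 3.07% for EA3 against EA2. For Gbp2, the log2 fold change in EA2 minus that in EA1 was -2.90 ± 0.44 (adjusted p = 0.00263). For Ifit2, EA2 minus EA1 came to -2.88 ± 0.71 (adjusted p = 0.0306) and EA3 minus EA2 to 3.99 ± 0.77 (adjusted p = 0.0152). The Ifit3 difference of EA3 minus EA2 was 6.04 ± 1.51 (adjusted p = 0.0476), on few counts. Helz2 rose more in EA3 than in EA1, by 1.25 ± 0.28 (adjusted p = 0.0378). This comparison was fragile, though the shares of all genes under the same alternatives are not given here. When a single day was left out, Gbp2 and Ifit2 still passed without day 1, and 0 passed without day 2, 3 or 5, where 9, 7 and 9 members had an unadjusted p under 0.05. Ifit3 was not called with DESeq2, which called Bst2 and Ifitm1 in its place and 5 members in all.

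The change of the alectinib effect over days was tested as a slope per doubling of the day. At an adjusted p under 0.05, edgeR's quasi-likelihood test called 0 of 34 members in each line, beside 0.021% of all genes in EA1, 0.0% in EA2 and 0.0631% in EA3. Of the 102 slopes, 11 had an unadjusted p under 0.05. DESeq2 called 1 member in each line, Isg20 in EA1 and EA3 and Ifitm1 in EA2. The Ifitm1 slope was -2.46 ± 0.40 (unadjusted p = 8.38e-05, adjusted p = 0.171) in EA2. The Isg20 slope was -1.19 ± 0.23 (unadjusted p = 0.000284, adjusted p = 0.136) in EA1 and -1.06 ± 0.23 (unadjusted p = 0.000664, adjusted p = 0.102) in EA3. In EA3, Isg20 stood at 26.8, 52.7, 50.7 and 145 CPM in DMSO and at 37.8, 30.3, 33.2 and 31.4 CPM with alectinib, so that the DMSO level differed more between days than the alectinib level.

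The DMSO level of a member, without any alectinib, differed between lines for 18 of the 34, beside 54.9% of all genes tested (39.9% for EA2 against EA1, 31.2% for EA3 against EA1 and 35.9% for EA3 against EA2). The order of the lines was not shared by all members. Samd9l averaged 55.9 ± 41.5 CPM in EA1, 24.3 ± 20.9 CPM in EA3 and 0.77 ± 0.447 CPM in EA2, and EA2 minus EA1 was -5.92 ± 0.45 (adjusted p = 6.06e-07) on the log2 scale. Xaf1 had the opposite order of those lines, with 7.7 ± 0.672 CPM in EA2, 2.29 ± 2.48 CPM in EA3 and 0.12 ± 0.104 CPM in EA1 (EA2 minus EA1 6.10 ± 0.67 (adjusted p = 1.43e-05)). EA3 was highest for Oasl1, at 29.7 ± 25.5 CPM, and exceeded EA1 by 2.07 ± 0.34 (adjusted p = 0.000569) and EA2 by 4.77 ± 0.42 (adjusted p = 2.89e-06). Oasl2 and Usp18 were also highest in EA3, Trim30a and Ifi27 were highest in EA1, and Ifit2, Herc6 and Ifitm3 were highest in EA2. Gbp2 was lower in EA1 than in EA2 (EA2 minus EA1 3.91 ± 0.55 (adjusted p = 0.000119)), whereas its EA2 and EA3 levels did not differ beyond their spread (EA3 minus EA2 -0.51 ± 0.42 (adjusted p = 0.371)). Igtp showed the same order as Gbp2, and Irgm1, Parp9, Parp14 and Dtx3l, which rose in all lines, were not called between lines in DMSO. Per kilobase of exon, the highest mean DMSO level among the 34 members was that of Ifitm1 in EA1 (167 CPM per kb), Ifitm3 in EA2 (313) and Lgals3bp in EA3 (62.3).

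**Figure D3:**
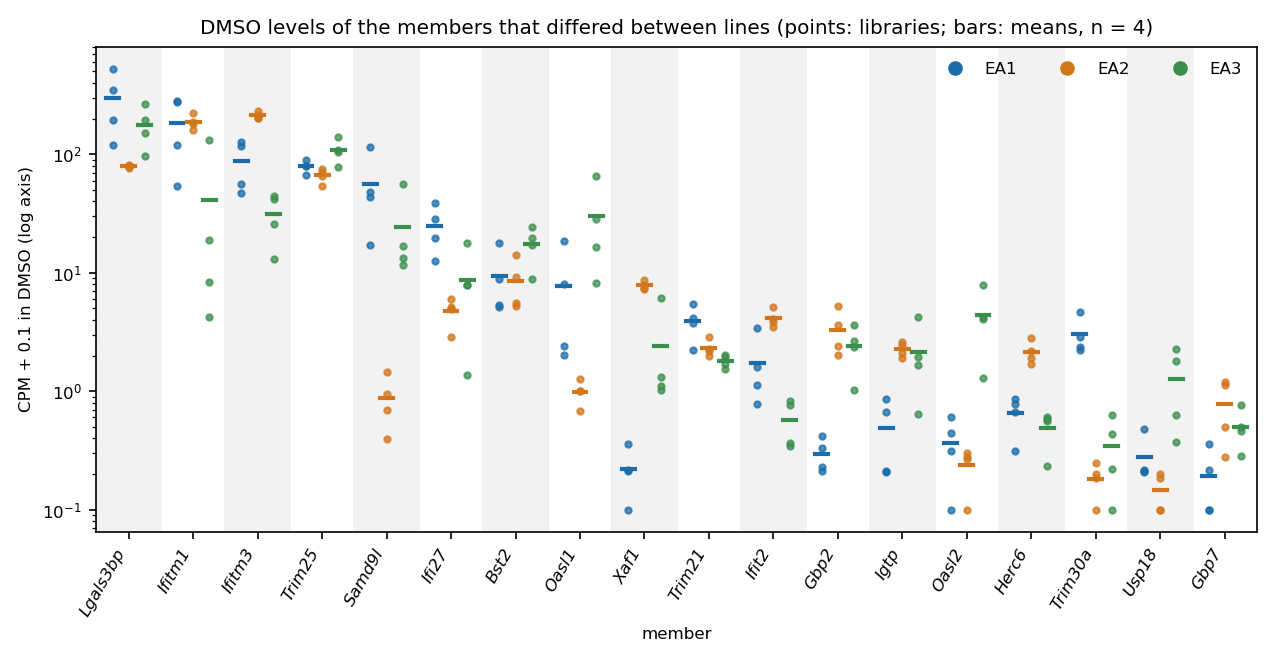
DMSO levels (CPM plus 0.1, log axis) of the 18 members that differed between lines, with points for the 4 libraries of a line and bars for their means. Samd9l and Xaf1 show the widest gaps between lines, with EA2 lowest for Samd9l and highest for Xaf1.

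For 13 members, among them the antiviral GTPases Mx1 and Mx2, viperin (Rsad2) and its neighbour Cmpk2, counts were too low for a test, and the highest count in any library was 66, for Rtp4. Their totals over the 4 libraries of a group are given without a test. Rtp4, a chaperone of receptors, went from 11 counts in EA3 DMSO to 111 with alectinib, from 6 to 22 in EA1 and from 31 to 23 in EA2. For Mx2 the totals were 3 and 59 in EA3, 3 and 23 in EA1, and 7 and 17 in EA2, in DMSO and alectinib. Ifit1 had 5 and 53 counts in EA3, 2 and 7 in EA1, and 5 and 5 in EA2. Ddx60, an RNA helicase, had 6 and 34 in EA3, 3 and 12 in EA1, and 4 and 14 in EA2. Not all totals were higher with alectinib. In EA2 they were 10 and 2 for Oas3, 6 and 0 for Mx1, 4 and 0 for Ifit3b, and 3 and 0 for Epsti1. In EA3 they were 2 and 11 for Oas3, 4 and 7 for Mx1, 0 and 15 for Ifit3b, 0 and 1 for Epsti1, and 5 and 4 for Ifi27l2a. Oas2 had 1 count in all 24 libraries together and Oas1a had 5, and no library held more than 3 counts of either, so a change in them was not detectable at this depth. Gm45338 covers 13.9% of the Rtp4 exon bases on the same strand. In the GENCODE annotation Mx2 is a polymorphic pseudogene.

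**Figure D4:**
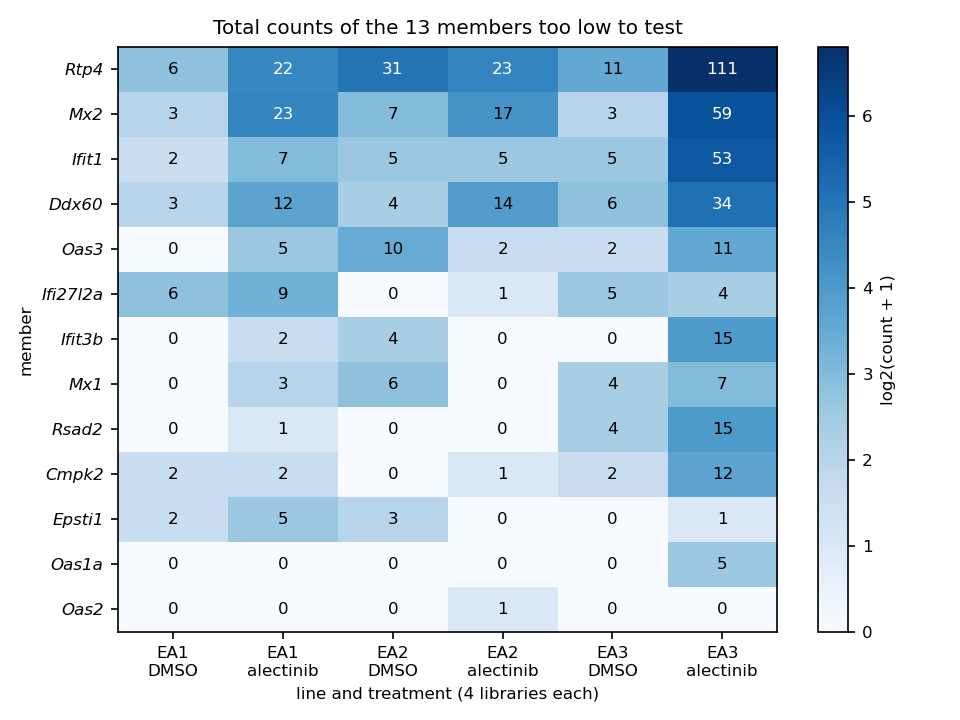
Total counts over 4 libraries for the 13 members too low to test, by line and treatment, with a darker blue for more counts (log2 of the count plus 1). The EA3 alectinib column holds the largest totals, 111 for Rtp4, 59 for Mx2 and 53 for Ifit1.

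The genes that make and transmit the interferon signal were taken from 6 further lists. The interferons themselves were barely seen: 14 of 21 ligand genes had 0 counts in all 24 libraries, the other 7 had 26 counts together, and no library held more than 4 counts of any of them. The receptors were expressed, and 5 of 6 rose in EA1 and EA3 and 2 of 6 in EA2, beside 18.0%, 16.5% and 13.0% of all genes tested in EA1, EA3 and EA2. Ifnar1, the first chain of the type I receptor, averaged 81.8 ± 4.15 CPM in DMSO and 152 ± 49.1 CPM with alectinib in EA3, a log2 fold change of 0.84 ± 0.15 (edgeR adjusted p = 0.000972), and Ifnlr1, of the type III receptor, fell in EA1. Among the kinases and ISGF3 subunits, Stat2 rose in EA1 by 1.32 ± 0.30 (adjusted p = 0.0042) and in EA3 by 0.94 ± 0.28 (adjusted p = 0.021), Irf9 rose in EA3 by 0.71 ± 0.18 (adjusted p = 0.00915), and Jak1 rose in all 3 lines. Of the 4 other IRF genes tested, Irf7, which amplifies the interferon response, rose in EA1 (adjusted p = 0.0377), from a mean of 1.1 to 2.87 CPM, and in EA3 (1.78 ± 0.50, adjusted p = 0.0155), and Irf2 fell in EA3.

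Sensors of RNA and DNA rose for 5 of 11 tested genes in EA1, 3 in EA2 and 5 in EA3, against the same shares of all genes. Ddx58, which encodes the RNA sensor RIG-I, averaged 6.6 ± 3.08 CPM in DMSO and 32.4 ± 4.22 CPM with alectinib in EA1, 9.3 ± 1.03 CPM in DMSO and 36.1 ± 9.76 CPM with alectinib in EA2 and 11.2 ± 3.2 CPM in DMSO and 42.6 ± 10.4 CPM with alectinib in EA3. Its log2 fold changes were 2.38 ± 0.24 (edgeR adjusted p = 1.7e-05), 1.93 ± 0.23 (adjusted p = 6.46e-05) and 1.94 ± 0.23 (adjusted p = 6.65e-05). Ifih1, the related sensor MDA5, rose in EA1 by 2.13 ± 0.39 (adjusted p = 0.00179) and in EA3 by 2.33 ± 0.37 (adjusted p = 0.000752), and was near 0 in EA2 under both treatments. Tmem173 (STING), the adaptor of DNA sensing, fell in 2 lines, EA2 (-2.31 ± 0.33, adjusted p = 0.0002) and EA3 (-1.21 ± 0.31, adjusted p = 0.01). Negative regulators moved both ways. Of 6 tested, 2 fell in EA1, 1 rose and 4 fell in EA2, and 2 rose and 2 fell in EA3, beside 15.8%, 11.3% and 15.8% of all genes that fell in EA1, EA2 and EA3 and 13.0% and 16.5% that rose in EA2 and EA3. Socs3 and Ptpn2 fell in all 3 lines, whereas Pias1, a SUMO ligase, rose by 0.73 ± 0.13 in EA2 and by 0.50 ± 0.13 in EA3 (adjusted p = 0.00101 and 0.00929) and the phosphatase Ptpn11 rose in EA3 (0.75 ± 0.18, adjusted p = 0.00712). Socs3, a feedback inhibitor of JAK kinases, averaged 179 ± 60.2 CPM in DMSO and 33.8 ± 9.37 CPM with alectinib in EA3, a log2 fold change of -2.37 ± 0.28 (adjusted p = 6.56e-05), and Ptpn2, a phosphatase of JAK1, changed by -0.93 ± 0.18, -0.68 ± 0.18 and -1.09 ± 0.18 in EA1, EA2 and EA3. The alectinib effect differed between lines for 2 of the 33 genes tested on these lists, a share no higher than the 7.05% of all genes, namely Jak2 and Socs1, a feedback inhibitor of JAK kinases. Jak2 rose in EA1 by 0.97 ± 0.19 and was not called in EA2 (-0.51 ± 0.19) or EA3 (-0.50 ± 0.19), and Socs1 fell in EA2 (-2.57 ± 0.41) and was not called in EA1 (-0.07 ± 0.40) or EA3 (-1.03 ± 0.40).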

How the data were processed

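RNA was extracted from EA1, EA2 and EA3 cells, and stranded poly(A) libraries were sequenced. The authors checked reads with FastQC, trimmed adapters with bbduk, mapped to mm10 (GRCm38) with STAR and deposited raw counts per gene from its internal counter. The annotation release and strand column are not given in the sources used here, and GENCODE vM21 was used for coordinates. In the table, 24 rows that name no gene held 0.129% to 0.201% of the counts in a library and did not enter the analysis. CPM values scale each count to 1000000 of the library total after adjustment by the TMM factors. The members and lists were chosen with earlier results of these data known.

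Differences were fitted with edgeR 4.0.16 in R 4.3.3 (TMM factors, filterByExpr by line and treatment, robust quasi-likelihood tests, Benjamini-Hochberg adjustment over all 14264 genes, threshold 0.05). Days 1 to 5, 24 libraries in all, formed 1 model with 12 line-and-day blocks and an alectinib effect per line, which leaves 9 residual degrees of freedom. The labels place a DMSO and an alectinib library on each line and day, and their deviations from group means correlated between -0.300 and 0.549, so the pairing rests on the labels. DMSO levels between lines were fitted on 12 libraries with line and day. Library totals ran from 5780062 to 11732401 counts. Per-library CPM values were given in full for the 2 members of each family with the smallest p-value in any line and for any member whose effect differed between lines. Alternatives were DESeq2 1.42.0, its size factors, library size alone, no filter, a filter of at least 10 counts in every library, each line alone, no day block, a log2 fold change of at least 1, day as a linear number and each day left out. The calculations were tested on simulated counts. The 2 libraries labelled EA3 day 7 were not tested. Of the genes on the pathway lists, 1 is left out of the text and not reported here.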

Additional observations from a re-analysis of the deposited data

Results flagged for a closer look

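A difference of the alectinib effect between lines passed the test for 4 members, with edgeR adjusted p-values of 0.00522 for Gbp2, 0.0139 for Ifit2, 0.0336 for Helz2 and 0.0416 for Ifit3. Gbp2 was higher on all 4 days in each line, and its log2 fold changes were 4.56 in EA1, 1.66 in EA2 and 2.81 in EA3. Ifit2 was higher on 4 of 4 days in EA1 and EA3 and on 1 of 4 in EA2, and Ifit3 on 4, 0 and 4 of the days in EA1, EA2 and EA3. Helz2 was higher on 3 of 4 days in EA1 and on 4 of 4 in EA2 and EA3.

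A single day stood apart from the other 3 in 2 of the 62 sets of 4 daily ratios examined. In EA3 the log2 ratio of Dtx3l was 0.78 on day 3, below 1.53, 1.61 and 1.59 on days 1, 2 and 5. The ratio of Igtp in EA3 was 1.88 on day 3, above 1.23, 1.22 and 1.23 on the other days. Chance alone flags about 1 in 20 such sets. The causes were not tested.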

How the results depend on the processing

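The number of members called moved with the filter, with single days, with the day block and with the lines fitted alone. These are counts of members only, without the share of all genes under the same setting. With at least 10 counts in every library, 13 members could be tested, and 4 rose in EA1, 7 in EA2 and 7 in EA3, 1 fell in EA2 and 2 in EA3, 1 differed between lines and 6 differed in DMSO. With no filter, 2 fell in EA1, 4 fell in EA2 and 13 differed between lines, and 1 slope over days passed in EA1 and 1 in EA3. With each line fitted alone, 10 rose and 1 fell in EA1, where fewer members had a value. Without the day block that pairs DMSO and alectinib libraries, 7 rose and 1 fell in EA2 and 2 differed between lines, and 17 rose in EA1 and 21 in EA3. DESeq2 called 1 slope in each line. Leaving out each day in turn gave 10 to 17 members that rose in EA1, 5 to 11 in EA2 and 18 to 25 in EA3. In the same runs, 1 to 2 fell in EA2 and 3 to 5 in EA3, 0 to 2 differed between lines, 13 to 16 differed in DMSO, and 0 to 1 slopes passed in EA1 and in EA3. The lowest counts of rises came without day 3 in EA1 (10) and without day 1 in EA2 (5). The cause of these shifts was not tested, except that fewer members or libraries entered the fit under the stricter filter and with days or lines left out.

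The fold change of each member in each line was compared between the main fit and every alternative fit that gave it a value, so it counts several times. Of these comparisons, 914 kept the direction and the side of the threshold, 79 lost a call, 22 gained one and 9 changed sign. None of these 9 was past the threshold in either setting. Without day 1 the log2 fold change became -0.10 for Oasl2 in EA2, -0.0028 for Ifi35 in EA1, 0.20 for Lgals3bp in EA1 and 0.24 for Sp100 in EA2. Without day 2 that of Lgals3bp in EA1 was 0.12. Without day 3, Ifitm2 in EA1 came to -0.12 and Bst2 in EA1 to -0.32. Without day 5, Isg20 in EA1 came to 0.41. Without the day block, Bst2 in EA1 came to -0.060. A minimum log2 fold change of 1, which is a threshold and not a refit, is not counted among these. Under every alternative fit that gave the member a value, 10 of the 18 rises in EA1, 4 of 15 in EA2 and 17 of 23 in EA3 were kept, with 7 to 11 such fits for a called member in a line. Depth limits what can be said of the 13 members that were not tested and of such members as Ifit3, Ifi44, Xaf1, Gbp3, Gbp7 and Iigp1, which had 0 to 5 counts in at least 1 DMSO group.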

Other observations

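The 2 libraries labelled EA3 day 7, 1 in DMSO and 1 with alectinib, entered no comparison. Over all tested genes, their log2 levels correlated with the EA2 libraries at a median r of 0.938 (DMSO) and 0.942 (alectinib), against 0.848 and 0.849 with the EA3 libraries of days 1 to 5 and 0.842 and 0.839 with those of EA1. Among the members, Xaf1 stood at 9.48 CPM in the DMSO and 47.4 CPM in the alectinib library, Irgm1 at 13.5 and 33.3 CPM, and Gbp2 at 0.758 and 6.11 CPM. Samd9l stood at 0.253 and 9.0 CPM, Ifit2 at 3.03 and 5.77 CPM, and Ifit3 at 0.253 and 0.170 CPM. Oasl1 was at 1.52 and 0.424 CPM, Ifitm1 at 51.7 and 2.04 CPM, and Ifitm3 at 109 and 25.5 CPM. There is 1 library per treatment, so these values carry no replicate check.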
